A study of Mus musculus with 3 samples.

Results

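The Notch genes examined here were 4 receptor genes (Notch1, Notch2, Notch3 and Notch4), 4 ligand genes (Jag1, Jag2, Dll1 and Dll4) and 2 target genes (Hes1 and Hey1). They were chosen by name as canonical members of the pathway, and all 10 were found among the 47480 gene symbols measured. RNA was sequenced from 3 mammary tumours of the FVB-MMTV-Neu strain, in which the mammary tumour virus promoter drives the receptor oncogene Neu mainly in mammary epithelium. Per the labels' protocols, tumours were transplanted into the mammary site of syngeneic hosts, grew to a diameter of 5 mm and then went 7 days with no treatment, whereas the series' design text speaks of tumours from untreated MMTV-Neu mice. All tumours form 1 group with 1 library each and are called tumours 1, 2 and 3 in the order of deposition. The labels do not say whether they came from separate donor mice, and no treated, normal or wild-type sample was compared.

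Notch receptors are single-pass membrane proteins that bind Jagged and Delta-like ligands on neighbouring cells. Binding exposes the receptor to an ADAM protease and then to γ-secretase, which frees the intracellular domain to join the DNA-binding protein RBPJ and a Mastermind coactivator at target genes such as Hes1 and Hey1. In the mammary gland Notch signalling is known for its part in luminal cell fate. Notch4 was first found as Int3, a common insertion site of the mammary tumour virus, and Notch1 was found as an insertion site in MMTV-Neu tumours. Counts per gene do not tell a truncated or activated receptor transcript from a normal one.

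The libraries differed in depth and in make-up, and some of these differences split the tumours as Notch1, Jag2 and Dll1 did. Total estimated counts were 47449153, 11388769 and 17147394 in tumours 1, 2 and 3. By the file headers, tumour 1 was run in lane 1, whereas lane 5 held both other tumours, so that lane and the difference of tumour 1 from the others cannot be told apart. Levels are given as CPM, counts brought to a common library total, with totals scaled by TMM, a method that aligns libraries on the bulk of their genes. The TMM factors were 1.48, 0.722 and 0.936. The luminal markers fitted the tissue label, since all 10 listed passed the filter on low counts, with a summed level of 2265, 1865 and 2751 CPM. The ribosomal RNA symbol Rn18s-rs5 took 0.2%, 7.87% and 6.68% of all counts in tumours 1, 2 and 3, and the mean transcript length, weighted by counts, was 3408, 2970 and 2821 bases. The part of these in the results was not tested as such. Alternatives given below removed a trend on GC content and length, or thinned counts to the smallest library. The 8 listed skeletal muscle markers summed to 4.67, 48130 and 20870 CPM, so that muscle transcripts were plentiful in tumours 2 and 3 and close to absent from tumour 1.

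All 10 Notch genes passed the filter on low counts, and 3 of them set tumour 1 apart. Notch1, Jag2 and Dll1 were each at least 4-fold higher in tumour 1 than in either other tumour, while no member was 4-fold lower there. Of the 12710 genes past the filter, 6.05% had this pattern, and in 8.21% tumour 1 was lower than both others by 4-fold or more. The filter asked for a minimum level in all 3 tumours, so genes with too few counts in any tumour were left out. These shares were 9.88% and 6.81% with no filter and 9.11% and 10.6% with a mean CPM filter of 1. With library totals alone they were 16.2% and 3.6%. For 3 of 10 members the highest and the lowest tumour were at least 4-fold apart, against 29.5% of all genes, so the share of wide members was close to that of genes at large. No member was 4-fold above or below both others in tumour 2 (0.252% and 0.590% of all genes) or in tumour 3 (0.0787% and 0.0787%). Tumour 1 held the highest level of 5 of 10 members, against 47.1% of all genes. The median difference of tumour 1 from the mean of the others was 0.31 over the members and 0.11 over all genes on the log2 CPM scale.

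**Figure D1:**
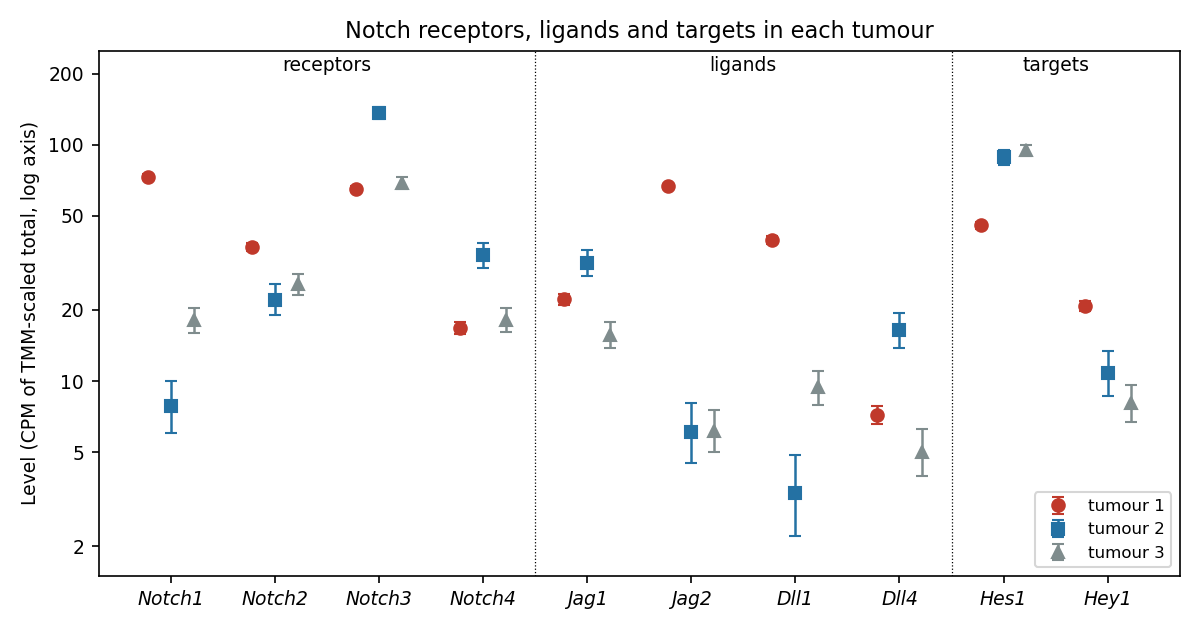
Level of each Notch gene in tumours 1, 2 and 3, in CPM of the TMM-scaled total on a log axis. Bars are exact 95% Poisson intervals, which cover counting error only. Notch1, Jag2 and Dll1 lie far higher in tumour 1 than in tumours 2 and 3, whereas Notch3, Notch4 and Dll4 are highest in tumour 2 with this scaling (with library totals alone Notch4 is not).

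The promoters of the 3 genes that set tumour 1 apart are shown because these shared a high level there, with that of Nrarp, a small ankyrin-repeat inhibitor of Notch signalling that Notch itself induces. RefSeq windows (build GRCm38.p6) run from 250 bases before to 50 bases after the RefSeq start of each gene. They were searched on both strands for TGGGAA, the core to which RBPJ binds, and matches would stand in capitals. The windows are chr2:26503773-26504072 (minus strand) for Notch1, chr12:112929446-112929745 (minus strand) for Jag2, chr17:15376883-15377182 (minus strand) for Dll1 and chr2:25180508-25180807 (plus strand) for Nrarp. They are written 5′ to 3′ on the strand of the gene.
Notch1: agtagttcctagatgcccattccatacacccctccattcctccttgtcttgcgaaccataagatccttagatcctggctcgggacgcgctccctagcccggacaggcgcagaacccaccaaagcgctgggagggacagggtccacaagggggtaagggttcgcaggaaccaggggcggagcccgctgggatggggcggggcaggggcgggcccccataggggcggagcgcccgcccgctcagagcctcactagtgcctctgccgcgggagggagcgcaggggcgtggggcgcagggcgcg
Jag2: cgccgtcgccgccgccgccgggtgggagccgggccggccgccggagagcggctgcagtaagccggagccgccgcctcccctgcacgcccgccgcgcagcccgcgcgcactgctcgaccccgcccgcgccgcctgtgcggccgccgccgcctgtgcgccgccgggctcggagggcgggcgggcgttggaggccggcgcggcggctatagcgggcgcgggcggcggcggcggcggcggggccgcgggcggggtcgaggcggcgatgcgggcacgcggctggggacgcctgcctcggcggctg
Dll1: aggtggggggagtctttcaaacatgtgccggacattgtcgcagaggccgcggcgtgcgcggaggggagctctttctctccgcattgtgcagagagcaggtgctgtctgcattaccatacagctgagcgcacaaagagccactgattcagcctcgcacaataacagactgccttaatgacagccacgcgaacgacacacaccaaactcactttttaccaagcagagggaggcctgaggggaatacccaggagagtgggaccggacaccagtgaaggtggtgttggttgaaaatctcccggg
Nrarp: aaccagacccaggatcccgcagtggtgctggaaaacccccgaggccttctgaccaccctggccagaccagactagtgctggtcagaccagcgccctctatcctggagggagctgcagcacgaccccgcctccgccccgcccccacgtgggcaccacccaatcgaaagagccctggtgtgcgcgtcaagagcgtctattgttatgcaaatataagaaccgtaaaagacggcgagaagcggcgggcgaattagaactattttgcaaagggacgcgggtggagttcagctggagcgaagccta
None of these windows held the core, and neither did those of the other members in the table, which were Notch2, Notch3, Notch4, Jag1 and Dll4. The core stood in 25.6% of 32851 promoter windows of this length. The Jag2 window was 86.0% GC, the Notch1 window 68.3% and the Dll1 window 56.3%, against a median of 52.7% over all windows. The table held windows for 8 of the 10 members, and Hes1 and Hey1 were not among them. The RefSeq starts of Notch1 and Jag2 lie 12841 and 281 bases inside the GENCODE start of the gene. Both windows thus lie wholly within the GENCODE span and hold no sequence upstream of it. Dll1 has a second window, with no match, and the one nearest its annotated start is shown.

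Notch1, the receptor gene best known from lymphoid and epithelial fate choice, showed the widest spread among the receptors. It was at 72.9 CPM in tumour 1, 7.83 CPM in tumour 2 and 18.1 CPM in tumour 3, from 5045, 63 and 284 counts. Tumour 1 stood above both others, and tumour 2 was lowest. The level in tumour 1 was 9.31-fold that of tumour 2 and 4.04-fold that of tumour 3, so the second step lay just past 4-fold. It no longer passed with tumour 2 left out, with DESeq2 size factors, a mean CPM filter of 1, a prior count of 10, counts thinned to the smallest library or the trend on GC content and length removed. In tumour 3 its exact 95% Poisson interval was 16.0 to 20.3 CPM. The gene (ENSMUSG00000026923.15, minus strand) spans 26457903 to 26516663 of chromosome 2 in GRCm38. Its exons share 1068 bases with 0610009E02Rik on the opposite strand, which had 930, 0 and 0 counts, and 414 bases with the predicted gene Gm13568, which had 368, 230 and 482. The strand setting of the counting is not given in the sources used here, so reads of such partners cannot be told apart.

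Notch2, a receptor with wide tissue expression, was the most even member. It was at 36.9, 22.1 and 25.7 CPM in tumours 1, 2 and 3, a mean of 28.2 ± 7.68 CPM (SD, n = 3). Its SD of log2 CPM was 0.38, which 22.4% of all genes did not exceed. Its level in tumour 1 was 1.67-fold that of tumour 2 and 1.44-fold that of tumour 3. Notch2 lies at 98013527 to 98150361 of chromosome 3, on the plus strand.

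Notch3 and Notch4 followed each other across the tumours. Notch3, a receptor known from pericytes and vascular smooth muscle, was at 136 CPM in tumour 2, against 64.9 CPM in tumour 1 and 68.8 CPM in tumour 3. Notch4, known mainly from endothelium, was at 34.1 CPM in tumour 2, against 16.8 CPM in tumour 1 and 18.1 CPM in tumour 3. Both were thus highest in tumour 2 with TMM, and tumours 1 and 3 were close to each other, whereas with library totals alone tumours 1 and 2 were about level, at 96.1 and 98.2 CPM for Notch3 and 24.8 and 24.6 CPM for Notch4. The level in tumour 2 was 2.09-fold that of tumour 1 for Notch3 and 2.03-fold for Notch4. Once each gene was centred on its mean, the Euclidean distance between their log2 profiles was 0.0532, the smallest of all pairs of members, over 3 tumours only. The next pair was Notch1 and Dll1, at 0.246. Notch3 (32120820 to 32166852, minus strand) and Notch4 (34564268 to 34588503, plus strand) both lie on chromosome 17.

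The Jagged ligand genes differed from each other. Jag2 was at 66.6 CPM in tumour 1, 6.09 CPM in tumour 2 and 6.17 CPM in tumour 3, from 4606, 49 and 97 counts. Tumours 2 and 3 were level, and tumour 1 was 10.9-fold above tumour 2 and 10.8-fold above tumour 3. Its SD of log2 CPM was 1.98, the largest of the members and as large as or larger than that of 95.4% of all genes. Jag2 stayed apart in tumour 1 under every setting tried that gave a value, the 8-fold threshold included. Jag1, the Jagged ligand with the broader known expression, was at 22.2, 31.6 and 15.6 CPM, or 23.1 ± 8.01 CPM (SD, n = 3). Tumour 2 was highest for Jag1 with TMM and tumour 1 with library totals alone (32.8 CPM, against 22.8 CPM in tumour 2), and with TMM its highest and lowest tumour were 2.02-fold apart. Jag2 spans 112907819 to 112929776 of chromosome 12 and Jag1 spans 137081456 to 137116644 of chromosome 2, both on the minus strand.

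The Delta-like ligand genes also parted. Dll1, a ligand known from mammary stem cell niches in the mouse, was at 39.6 CPM in tumour 1, 3.36 CPM in tumour 2 and 9.41 CPM in tumour 3. Tumour 1 was highest and tumour 2 lowest, with tumour 1 at 11.8-fold the level of tumour 2 and 4.2-fold that of tumour 3. Only 27 counts lay behind the value of tumour 2, whose interval was 2.21 to 4.88 CPM. Dll4, the ligand of endothelial tip cells, was at 16.4 CPM in tumour 2, against 7.18 CPM in tumour 1 and 5.02 CPM in tumour 3. It was at least 2-fold above both others in tumour 2, as were 5.43% of all genes. Notch1 and Dll1 were at least 2-fold below both others in tumour 2, as were 7.14% of all genes. Dll1 (15367354 to 15376872 of chromosome 17, minus strand) shares 867 exonic bases with A930024N18Rik on the opposite strand, which had 40, 0 and 2 counts. Dll4 lies at 119325784 to 119335962 of chromosome 2 and shares 214 bases with the predicted gene Gm14207, which had 13, 7 and 7 counts.

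The target genes differed from each other, and neither set tumour 1 apart by the 4-fold rule. Hes1, a transcriptional repressor of the basic helix-loop-helix class, was at 45.7 CPM in tumour 1, 88.4 CPM in tumour 2 and 94.6 CPM in tumour 3. With TMM it was lowest in tumour 1, with tumours 2 and 3 close together, but with library totals alone tumour 1 was at 67.6 CPM, against 63.8 CPM in tumour 2 and 88.6 CPM in tumour 3. The difference of tumour 1 from the mean of the others was -1.0 on the log2 scale, and with library totals alone it was -0.15. Hey1, a related repressor with known roles in vessels, was at 20.8, 10.8 and 8.07 CPM, so that tumour 1 was highest by 1.92-fold over tumour 2 and 2.57-fold over tumour 3. The count ratio of Notch1 to Hes1 was 1.6 in tumour 1, 0.0886 in tumour 2 and 0.191 in tumour 3. Scaling between libraries does not touch this ratio, but a trend on GC content or length can. With that trend removed, the difference of tumour 1 was 2.62 for Notch1, against 2.61 before, and -0.64 for Hes1. Hes1 lies at 30064384 to 30067796 of chromosome 16 (plus strand) and Hey1 at 8663359 to 8667256 of chromosome 3 (minus strand).

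In a chi-square test of the counts against counting error, with Benjamini-Hochberg adjustment over all genes, 10 of 10 members passed, as did 94.2% of genes. The adjusted p was largest for Jag1, at 3.28e-14. The test compares libraries, not conditions. Between tumours 2 and 3, which share a lane, 6 of 10 members passed it, against 62.0% of genes. Notch1 (log2 difference of tumour 2 from tumour 3 of -1.2, adjusted p = 1.65e-09) and Dll1 (-1.46, 6.53e-07) were lower in tumour 2. Notch3 (0.97), Notch4 (0.89), Jag1 (0.99) and Dll4 (1.66) were higher in tumour 2. Notch2, Jag2, Hes1 and Hey1 did not pass, with adjusted p of 0.11, 0.915, 0.116 and 0.0669. No member was 4-fold apart between tumours 2 and 3, and 1.09% of genes were. All intervals and tests here cover counting error only, since each tumour gave 1 library. They may understate that error, since reads are not independent molecules.

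Levels of different genes were compared per kilobase of the longest annotated transcript. Hes1 was highest in every tumour, at 31.1, 60.2 and 64.5 CPM per kilobase. Notch3 was highest in tumour 2, at 17.0 CPM per kilobase. It followed Hes1 with a mean of 11.2 ± 4.98 CPM per kilobase (SD, n = 3), and then came Hey1 (5.46 ± 2.76), Jag2 (5.15 ± 6.84), Dll1 (4.87 ± 5.41) and Jag1 (4.12 ± 1.43). Notch4 (3.49 ± 1.46), Notch1 (3.47 ± 3.69), Notch2 (2.69 ± 0.732) and Dll4 (2.55 ± 1.61) were lowest. From Hey1 down, neighbours in this order did not differ beyond their spread, and their places change with the length used. Hes1 was first in every tumour under all 3 lengths. Notch3 was second by its mean and in tumours 2 and 3 under all 3, but in tumour 1 it was behind Jag2 and Dll1 under each.

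The make-up of the receptor pool differed between tumours. As shares of the summed receptor level per kilobase within a tumour, Notch1 took 35.2% in tumour 1, 3.29% in tumour 2 and 12.1% in tumour 3. Notch3 took 37.1%, 67.7% and 54.7%. Notch1 and Notch3 were thus about even in tumour 1, and Notch3 prevailed in tumours 2 and 3. Notch2 took 16.1%, 8.41% and 15.6%, and Notch4 took 11.7%, 20.6% and 17.5%. With the union of all exons as length, Notch1 took 27.5% in tumour 1 and Notch3 43.0%. The summed receptor level moved less than Notch1 alone, and the sum depends on the scaling between tumours. With TMM the sum was 21.8, 25.1 and 15.7 CPM per kilobase in tumours 1, 2 and 3.

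The ligand pool differed both in make-up and in sum. Jag2 and Dll1 together took 80.4% of the summed ligand level per kilobase in tumour 1, 17.6% in tumour 2 and 48.2% in tumour 3. Tumour 2 was the reverse of tumour 1, with 46.4% from Jag1 and 36.1% from Dll4. In tumour 3, Jag1 and Dll1 were about even with the longest transcript as length, at 35.0% and 33%. With the median length of coding transcripts, Jag1 took 26.25% there, Jag2 19.87% and Dll1 41.25%. With the union of all exons, Jag1 took 37.8% and Dll1 31.4%. With TMM and the longest transcript, the summed level was 30.0 CPM per kilobase in tumour 1, against 12.1 in tumour 2 and 7.96 in tumour 3. This sum also depends on the scaling between tumours and on the length used.

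**Figure D2:**
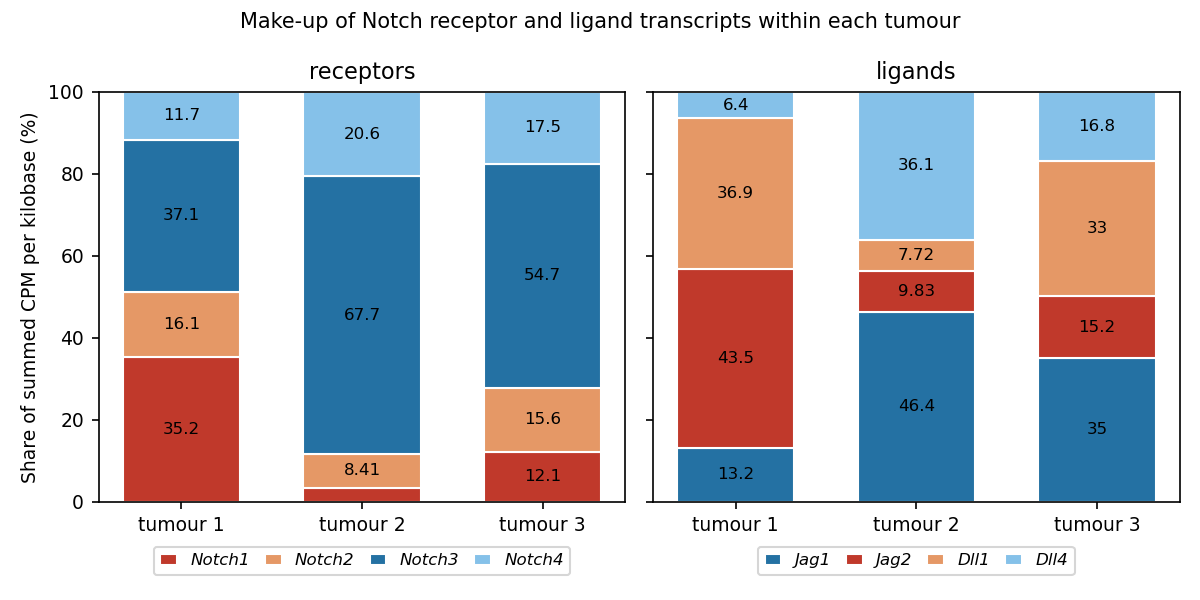
Share of each gene in the summed level per kilobase of the 4 receptors (left) and of the 4 ligands (right) within each tumour, in percent, using the longest transcript as length. Notch1 takes 35.2% of the receptor sum in tumour 1 and 3.29% in tumour 2, and Jag2 with Dll1 takes 80.4% of the ligand sum in tumour 1 and 17.6% in tumour 2.

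Other genes of the pathway were taken from 7 lists of 62 genes, all measured, of which 54 passed the filter. Tumour 1 was 4-fold or more higher than both others for 3 of these 54 and 4-fold or more lower for 3, against 6.05% and 8.21% of all genes. The higher ones were Itch, Cdk8 and Ctbp2 and the lower ones Dlk1, Neurl1a and Dtx3. With library totals alone, 6 were above and 2 below. At 2-fold, 13 were above and 9 below, against 22.1% and 20.7% of all genes. The median difference of tumour 1 from the others was 0.14 over these genes, close to the 0.11 of all genes. The counts in both directions were thus near those of genes at large.

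The γ-secretase subunit genes Aph1a (123, 188 and 131 CPM in tumours 1, 2 and 3), Ncstn (107, 152 and 146 CPM) and Psenen (54.1, 120 and 118 CPM) ranged less than 4-fold, and Aph1c ranged most, at 1.58, 10.2 and 4.32 CPM. Of the ectodomain proteases, Adam10 was at 102, 22.4 and 33.8 CPM and Adam17 at 58.2, 30.8 and 31.9 CPM. Adam10 and Adam17 were chosen after their values were seen. None of the 9 genes in this list was 4-fold above or below both others in tumour 1, against 6.05% and 8.21% of all genes.

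Sugar transferases that modify Notch receptors formed a list of 5 genes, of which 1, Mfng, was wide, against 29.5% of all genes. The Fringe gene Lfng was at 34.1, 98.6 and 76.6 CPM in tumours 1, 2 and 3, Mfng at 7.07, 34.2 and 16.7 CPM and Rfng at 40.1, 56.3 and 37.8 CPM. Pofut1, which adds the O-fucose that Fringe proteins extend, was at 50.6, 96.4 and 54.9 CPM. With TMM, Lfng and Mfng were at least 2-fold below both others in tumour 1, against 20.7% of all genes, and none was 2-fold above.

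Of 12 genes of ligand and receptor trafficking, 3 were wide, against 29.5% of all genes. The ubiquitin ligase gene Mib1, which drives ligand endocytosis, was at 58.3, 24.9 and 24.0 CPM in tumours 1, 2 and 3. Neurl1a, another ligase gene of this kind, was at 2.00, 38.4 and 24.2 CPM, and the Deltex family gene Dtx3 at 54.5, 526 and 246 CPM, both at least 4-fold lower in tumour 1. Dtx4, of the same family, went the other way, at 63.2, 30.5 and 22.8 CPM. The ligase gene Itch, chosen after its values were seen, was at 57.4, 8.95 and 14.2 CPM and at least 4-fold higher in tumour 1.

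Of 12 genes of the nuclear complex and its turnover, 11 passed the filter and 1 of these was wide, against 29.5% of all genes. Rbpj was at 120, 68.7 and 67.1 CPM in tumours 1, 2 and 3. The coactivator Maml1, chosen after its values were seen, was at 23.4, 23.5 and 22.1 CPM, and its difference between libraries did not pass the counting test (chi-square, Benjamini-Hochberg adjusted p = 0.64). The acetyltransferase genes Kat2a (87.1, 154 and 147 CPM) and Ep300 (39.3, 40.0 and 51.0 CPM) ranged less than 2-fold. Snw1, which encodes the cofactor SKIP, ranged most of the 12 but did not pass the filter, with 5074, 0 and 74 counts. The count of 0 in tumour 2 allows up to 0.373 CPM. Cdk8, the kinase that marks the Notch intracellular domain for turnover, was at 47.6, 4.85 and 8.39 CPM and was chosen after its values were seen. Among the corepressors, Aes was at 284, 1754 and 1085 CPM, Ctbp1 at 252, 324 and 301 CPM and Tle3 at 112, 216 and 121 CPM. Ctbp2 ranged most, at 149, 14.2 and 16.9 CPM.

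**Figure D3:**
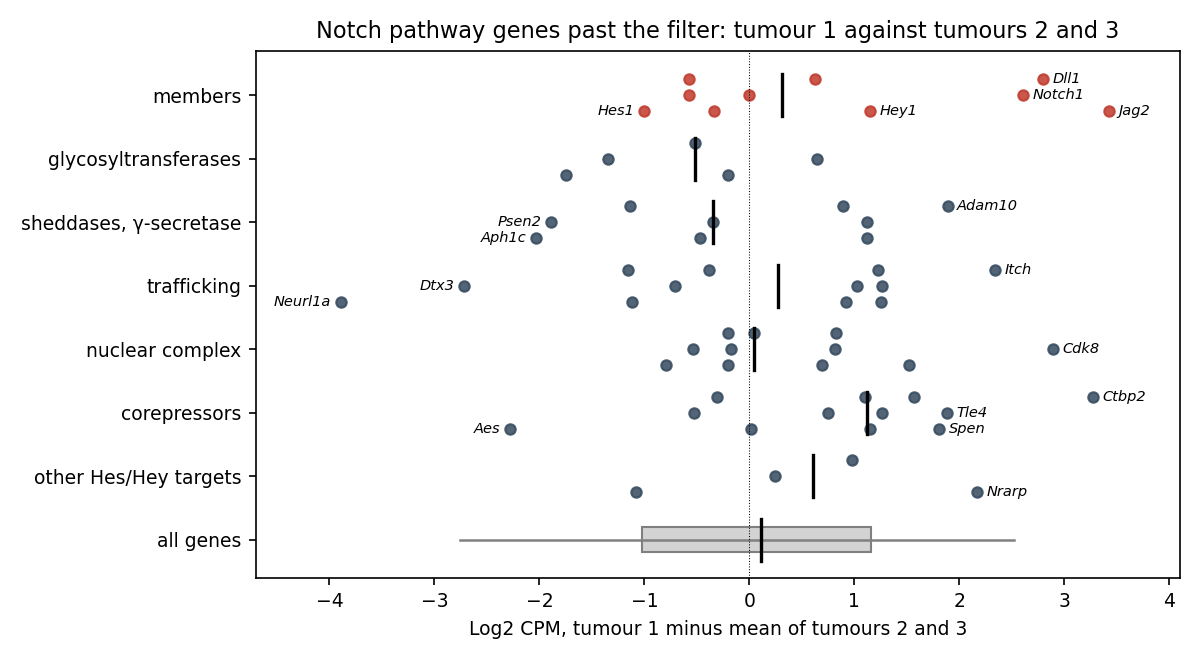
Difference of tumour 1 from the mean of tumours 2 and 3 in log2 CPM, 1 point per gene past the filter, for the Notch members (red) and 6 pathway lists; the other ligands, with only Dlk1 past the filter, are not drawn. Black bars are medians, and for all genes the box spans the 25th to the 75th percentile and the line the 5th to the 95th. Jag2, Dll1, Ctbp2, Cdk8 and Notch1 lie beyond the 95th percentile of 2.52, and Neurl1a, at -3.89, lies farthest below.

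Further target genes were mixed. Nrarp was at 35.4 CPM in tumour 1, 3.98 CPM in tumour 2 and 15.4 CPM in tumour 3, in the same order as Notch1 and Dll1. It was 8.90-fold higher in tumour 1 than in tumour 2 and 2.30-fold higher than in tumour 3, so it was not apart by the 4-fold rule. The count ratio of Nrarp to Notch1 was 0.485, 0.508 and 0.852 in tumours 1, 2 and 3. Heyl, a vascular relative of Hey1, was at 15.8, 6.84 and 9.28 CPM, and Hes6, which acts against Hes1 in neurons, at 20.4, 12.3 and 24.3 CPM. Hey2 had 37, 13 and 14 counts and Hes7 9, 7 and 26. Hes5 and Hes2 had 1, 0 and 0 counts each and Hes3 had 0 in all libraries, which allows up to 0.0434, 0.373 and 0.191 CPM.

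The promoters of Hes5 and Hey2 are shown because, unlike the windows above, they hold the RBPJ core more than once, and both genes had few counts. The Hes7 window held it once, at position -180, and those of Hes6 held none. The windows are chr4:154960673-154960972 (plus strand) and chr10:30842734-30843033 (minus strand), again from RefSeq on GRCm38.p6, and capitals mark TGGGAA or its reverse complement.
Hes5: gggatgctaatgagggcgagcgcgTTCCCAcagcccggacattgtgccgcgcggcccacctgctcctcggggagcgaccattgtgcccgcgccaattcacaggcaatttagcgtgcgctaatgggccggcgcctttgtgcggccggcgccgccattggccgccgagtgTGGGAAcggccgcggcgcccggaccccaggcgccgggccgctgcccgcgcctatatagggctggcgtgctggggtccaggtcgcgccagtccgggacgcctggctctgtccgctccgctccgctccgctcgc
Hey2: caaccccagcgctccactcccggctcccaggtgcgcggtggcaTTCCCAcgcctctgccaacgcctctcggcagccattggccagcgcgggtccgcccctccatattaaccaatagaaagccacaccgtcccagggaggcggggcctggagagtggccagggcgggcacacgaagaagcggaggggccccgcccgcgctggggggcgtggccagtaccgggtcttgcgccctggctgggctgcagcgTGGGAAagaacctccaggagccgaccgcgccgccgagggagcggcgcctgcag
Each held 2 matches, 1 on either strand, and 3.79% of all windows held 2 or more. Their first bases lie at positions -226 and -82 of Hes5 and -207 and -3 of Hey2, counted from the RefSeq start as 1. In both genes each match was preceded by G on its own strand, the longer form GTGGGAA, which stood in 6.38% of all windows, with 2 or more in 0.256%. A match is a description of the letters and not evidence of binding.

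Markers of the cell types that could carry these transcripts moved with some of them. In these bulk samples fewer cells of a type and less RNA per cell cannot be told apart. Of 10 basal and myoepithelial markers, 6 were at least 4-fold above both others in tumour 1 and none below, against 6.05% and 8.21% of all genes. The 10 summed to 773, 121 and 145 CPM in tumours 1, 2 and 3. Among the 6 were the integrin gene Itgb4 (288, 23.4 and 40.0 CPM) and the keratin genes Krt14 (107, 12.4 and 6.74 CPM) and Krt5 (64.4, 1.62 and 1.46 CPM). Itga6 (173, 23.6 and 45.3 CPM) was 3.83-fold above tumour 3 and so was not. Tumour 1 was highest for 8 of the 10. The exceptions, Mylk (16.3, 19.8 and 8.96 CPM) and Lamb3 (18.8, 20.8 and 29.8 CPM), were chosen after their values were seen. Of 7 luminal progenitor markers, 6 passed the filter. Of these, 3 were at least 4-fold above both others in tumour 1 and none below, against 6.05% and 8.21% of all genes. The 7 summed to 3330, 724 and 1425 CPM. The receptor gene Kit, of this list, was at 184, 4.47 and 4.77 CPM. Lcn2 (2572, 624 and 1265 CPM) and Sox10 (326, 60.4 and 113 CPM) were also highest in tumour 1, but were not 4-fold above tumour 3. Sums over the 10 luminal markers, given above, ranged less than 2-fold, but single markers moved in both directions. Cldn4, at 170.5, 10.7 and 20.2 CPM, was at least 4-fold above both others in tumour 1. Elf3, chosen after its values were seen, was at least 4-fold below, at 24.5, 170 and 185 CPM. None of 7 skin keratinocyte markers passed the filter, and they summed to 3.66, 1.24 and 2.80 CPM. Flg and Dsg1a were at 0 in all libraries, whereas Krt10 had 184, 4 and 18 counts, Krt1 24, 0 and 0 and Ivl 15, 0 and 3. The part of basal, progenitor and skin cells in the levels of Notch1, Jag2 and Dll1 was not tested.

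Vascular markers were highest in tumour 2 in sum, as were Notch3, Notch4 and Dll4 with TMM. All 12 endothelial markers passed the filter, none was at 0, and their sum was 2127 CPM in tumour 2, against 298 CPM in tumour 1 and 857 CPM in tumour 3. They did not move evenly. Pecam1 was at 775 CPM in tumour 2, against 56.5 CPM in tumour 1 and 231 CPM in tumour 3, while Cdh5, chosen after its values were seen, was at 72.5 CPM in tumour 2, against 41.2 CPM in tumour 1 and 46.3 CPM in tumour 3. The count ratio of Notch4 to Cdh5 was 0.407, 0.470 and 0.391 in tumours 1, 2 and 3, so its highest value was 1.2 times its lowest. Against the endothelial receptor genes Kdr and Tek it was less even, at 0.873, 1.02 and 1.16 for Kdr (1.33 times) and 2.86, 5.27 and 3.24 for Tek (1.84 times). The 3 highest markers of the list moved more than Notch4, so Notch4 was not even against them. With TMM, tumour 2 was 13.7-fold tumour 1 for Pecam1 and Egfl7 and 11.8-fold for Cldn5. For Notch4 it was 2.03-fold. For Dll4 to Cdh5 the ratio was 0.174, 0.226 and 0.108. For Notch3 to the pericyte receptor gene Pdgfrb it was 0.785, 1.65 and 1.2 (2.1 times). Against Mcam, a marker of the same list, Notch3 was more even, at 0.788, 0.922 and 0.741 (1.24 times). The pericyte and smooth muscle list had a median difference of tumour 2 from the others of 0.65, and its sum was 4108 CPM in tumour 2, against 561 CPM in tumour 1 and 2255 CPM in tumour 3. Des, which skeletal muscle also expresses, made up 3185 CPM of that sum in tumour 2. Fibroblast markers summed to 4010, 6555 and 3617 CPM in tumours 1, 2 and 3, macrophage markers to 179.5, 520 and 396 CPM and adipocyte markers to 417, 290 and 230 CPM. The part of vascular cells in the levels of Notch3, Notch4 and Dll4 was not tested.

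**Figure D4:**
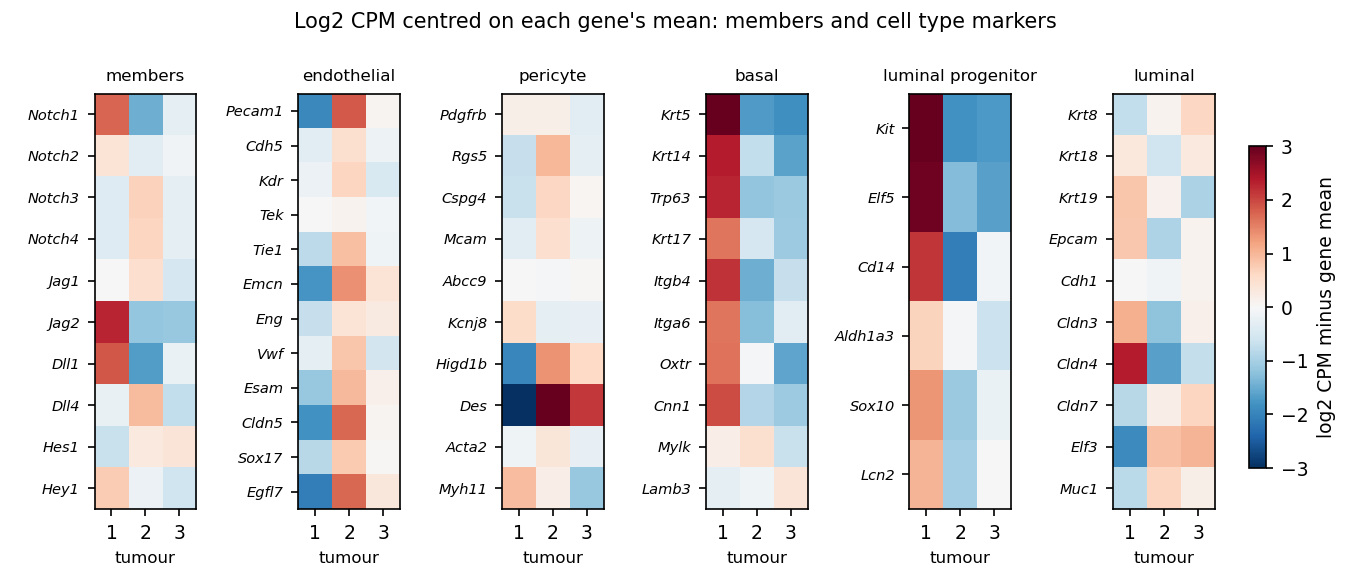
Log2 CPM of the 10 Notch members and of cell type markers past the filter in tumours 1, 2 and 3, each gene centred on its own mean. Red is above and blue below that mean, and colours saturate at 3. Notch1, Jag2 and Dll1 are high in tumour 1, as are most basal markers, and Notch3, Notch4 and Dll4 are high in tumour 2 with TMM (not Notch4 with library totals alone), as are endothelial markers.

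The genes with the patterns nearest to the 3 wide members were sought among 11853 named genes past the filter, by Euclidean distance of centred log2 CPM over 3 tumours. Nearest to Jag2 were Trp63, the transcription factor of basal epithelium, at 36.5, 3.23 and 3.37 CPM (distance 0.032), and Arhgap5 (0.033). Nearest to Notch1 were Nfkbiz and Tank, both genes of NF-κB signalling, at distances of 0.021 and 0.044. Nearest to Dll1 were Pole, the catalytic subunit of DNA polymerase epsilon (0.0052), and Trappc10, of a vesicle tethering complex (0.044). With only 3 tumours many genes share a pattern, and 96, 30 and 52 genes lay within a distance of 0.25 of Notch1, Jag2 and Dll1.

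The direction of the smaller differences depended on the scaling. With library totals alone, the median difference of tumour 1 over all genes shifted to 0.95, against 0.11 with TMM, and all members moved up with it. Over all genes, 2060 were then 4-fold or more higher in tumour 1 than in both others and 458 lower, in place of 769 and 1043. Notch3 then stood at 0.27 in place of -0.57, Notch4 at 0.28 in place of -0.57 and Dll4 at 0.50 in place of -0.34. Under DESeq2 size factors every member kept the sign it had with TMM. The differences of Notch1, Notch2, Jag2, Dll1, Hes1 and Hey1 kept their sign in all 10 alternatives that give one, whereas Dll4 also changed sign without tumour 2, at 0.48, and Jag1, at -0.00, had no direction.

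**Figure D5:**
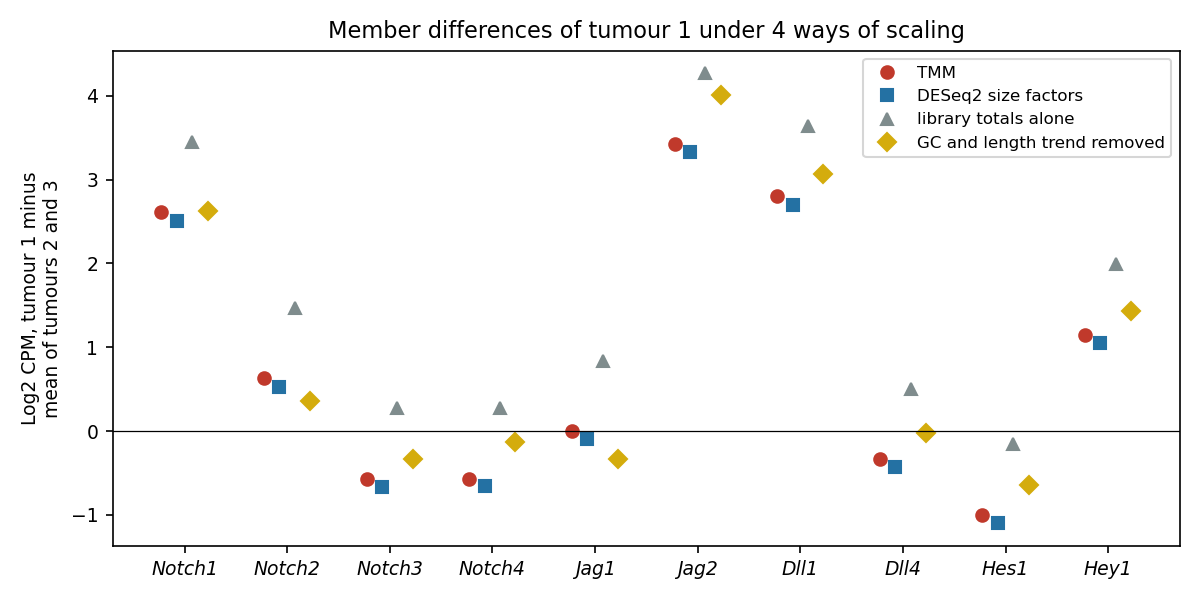
Difference of tumour 1 from the mean of tumours 2 and 3 in log2 CPM for each Notch member under TMM, DESeq2 size factors, library totals alone, and TMM with the trend on GC content and transcript length removed. Notch1, Jag2 and Dll1 lie above 2 in all cases, from 2.51 for Notch1 under DESeq2 size factors to 4.27 for Jag2 under library totals, while Notch3, Notch4, Jag1 and Dll4 cross 0 under library totals.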

How the data were processed

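Gene expression was measured in 3 libraries, 1 per tumour, with paired-end reads of 50 bp. The authors deposited expected counts for each gene symbol, read numbers estimated by Salmon according to the headers, and these were not scaled for depth or length. STAR, SAMtools, Picard and Salmon and the build mm10 are named in the submitters' processing notes, while their versions, the annotation and the strandedness of counting were not given there. Totals were 11388769 to 47449153 counts, and no count lacked a gene name. Counts were rounded. Genes were kept with filterByExpr of edgeR 4.0.16 (R 4.3.3; minimum count 10, minimum total 15), which left 12710 genes, and scaled by TMM. All tumours being 1 group, a gene had to reach the minimum level in each of the 3. Log2 CPM used a prior count of 2. A gene was apart in a tumour at a log2 difference of at least 2 from both others. With 1 group, no test of conditions was possible. The calls were tested on simulated data. P-values measure differences between libraries, and the spread between tumours may in part be technical. DESeq2 1.42.0 gave the alternative size factors. Positions, lengths and GC content came from GENCODE M21 (GRCm38, also named mm10) and covered 97.1% of genes past the filter. Promoter windows came from RefSeq. Named genes were the members, genes among the 3 highest and the widest of each list, and the 2 nearest in pattern to each wide member. Not every gene that this rule picks is printed. Several others are said in the text to have been chosen after their values were seen. Count ratios were also chosen after values were seen. The members and lists were chosen with earlier results of these data known.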

Additional observations from a re-analysis of the deposited data

How the results depend on the processing

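Of 100 recomputed differences of tumour 1 from the others for single members, 94 moved by less than the gene's SD between tumours. The other 6 moved further, all under library totals alone. That SD was 1.62, 1.98 and 1.78 for Notch1, Jag2 and Dll1 on the log2 scale, so large shifts of these genes also count among the 94. The differences of Notch1, Jag2 and Dll1 ran from 1.98 to 3.45, 3.33 to 4.27 and 2.03 to 3.64, and those of Notch3, Notch4 and Dll4 changed sign under library totals alone. The number of members with tumours at least 4-fold apart was 3, against 29.5% of all genes, and was 9 at 2-fold, against 65.6%. It was 0 to 3 as each tumour was left out in turn, with 0 without tumour 1, that is, within the shared lane. Without tumours 1, 2 and 3 in turn, 1.09%, 18.3% and 27.9% of genes were this far apart. The number above both others in tumour 1 was 3 and was 1, Jag2, at 8-fold, against 6.05% and 1.31% of all genes. Of the listed pathway genes, 3 were above both others in tumour 1, and this count was 6 with library totals alone, 5 without a filter, 13 at 2-fold, 1 at 8-fold and 3 to 7 as tumours were left out, with 7 without tumour 3. The count below was 3, and was 9 at 2-fold and 3 to 7 as tumours were left out, again with 7 without tumour 3. Of all genes, 8.21% were below, with 20.7% at 2-fold and 13.6% without tumour 3. The count of members past counting noise was 10, against 94.2% of all genes. It was 6 to 10 as tumours were left out, with 6 without tumour 1, where 62.0% of genes passed. Of the 10 places in the order per length, 4 were kept with the median length of coding transcripts and 3 with the union of exons. Other alternatives left these counts within 1.5 times. Where no cause is given, the cause was not tested. No paired analysis was possible because there is 1 group and the replicate numbers follow the order of deposition. Tumour 2 is the shallowest library, and 1 count there is 0.124 CPM, so that Dll1, Jag2 and Notch1 rest on 27, 49 and 63 counts.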

Other observations

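The count ratio of Jag2 to Trp63 was 1.82, 1.89 and 1.83 in tumours 1, 2 and 3, while Trp63 was at 36.5, 3.23 and 3.37 CPM. Trp63 was singled out because it lay nearest to Jag2 in pattern, so the even ratio is what that choice selects for. The ratio of Dll1 to Trp63 was 1.08, 1.04 and 2.79, and that of Notch1 to Krt5 was 1.13, 4.85 and 12.4. The non-canonical ligand genes Dlk1 and Dlk2 went in opposite directions, with Dlk1 at 4.44, 141 and 68.4 CPM in tumours 1, 2 and 3 and Dlk2, below the filter, at 525, 1 and 5 counts.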
